A study of Mus musculus with 4 samples.

Results

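The 3 D cyclins, the kinases they switch on, the inhibitors that hold those kinases back and Myc were examined in regulatory T (Treg) cells stimulated with thymic stromal lymphopoietin (TSLP), a cytokine made by epithelial cells. The set comprised 10 genes, namely the D cyclins Ccnd1, Ccnd2 and Ccnd3, the kinases Cdk4 and Cdk6, the inhibitors Cdkn1a, Cdkn1b, Cdkn2c and Cdkn2d, and Myc. They were taken by name from the deposited table of 24418 genes, and all 10 were found there. Both groups consisted of Treg cells from spleens and lymph nodes of Foxp3yfpCre mice, in which the Foxp3 locus carries a yellow fluorescent protein and Cre, so that the PBS controls bore this allele too. The sorted cells were kept for 3 h with TSLP (100 ng/mL according to the methods) or with PBS, with 2 libraries of each, called PBS 1, PBS 2, TSLP 1 and TSLP 2. The mice of the study were 8 to 12 weeks old. The labels do not say whether the libraries came from separate mice, so that p-values measure only the spread between these samples, which may be technical.

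D cyclins are the part of the cell cycle machinery that answers to growth factors and cytokines. They bind CDK4 and CDK6, and the active kinase phosphorylates the retinoblastoma protein, which then releases E2F transcription factors and lets the cell pass from G1 into S phase. The CIP/KIP inhibitors p21 (Cdkn1a) and p27 (Cdkn1b) block CDK2 and also bind cyclin D complexes, whereas the INK4 inhibitors p18 (Cdkn2c) and p19 (Cdkn2d) bind CDK4 and CDK6 directly. Myc is a transcription factor that drives growth and the entry into the cycle. In lymphocytes, Ccnd2 and Ccnd3 are the D cyclins mainly used, Ccnd2 and Myc are known to respond to cytokines, and p27 is a hallmark of resting T cells.

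The members of the D cyclin family are alike in sequence, so that the stretch at which their coding sequences are most alike is shown first, at the length of a sequencing read (50 bases). It lies in the part of the coding sequence that encodes the cyclin box. The sequences come from GENCODE M21 transcripts on GRCm38 (mm10) and read 5′ to 3′ along the transcript, with capitals at bases that differ from Ccnd2.
Ccnd2: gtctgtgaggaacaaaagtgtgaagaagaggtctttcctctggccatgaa
Ccnd1: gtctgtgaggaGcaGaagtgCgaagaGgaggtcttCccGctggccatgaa
Ccnd3: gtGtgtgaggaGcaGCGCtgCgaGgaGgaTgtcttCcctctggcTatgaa
The Ccnd2 window lies in exon 2 of 5 at chr6:127148830-127148879 on the minus strand. The Ccnd1 window, in exon 2 of 5 at chr7:144938053-144938102 on the minus strand, differs from it at 6 bases. The Ccnd3 window, in exon 4 of 7 at chr17:47594734-47594783 on the plus strand, differs at 12. Even there, a read of 50 bases distinguishes the 3 cyclins. No stretch of 50 bases in the Ccnd1, Ccnd2, Cdkn1b, Cdkn2c, Cdkn2d or Myc transcripts recurs on the same strand of another gene's transcript (0 in each). In Cdkn1a 2.14% of the stretches recur, in Ccnd3 1.99%, in Cdk6 0.924% and in Cdk4 0.460%. Some of these genes also overlap a gene on the opposite strand. Stretches found on the opposite strand in a transcript of any other gene, overlapping or not, were counted. They made up 21.6% of the 50-base stretches of Ccnd1, 17.0% of Cdk4 and 8.46% of Cdkn1a. For Ccnd2 the share was 6.31%, for Ccnd3 3.84% and for Cdk6 2.64%. Cdk4 overlaps Tspan31, Ccnd3 overlaps Bysl, and Ccnd2 overlaps Gm43126 and 9330179D12Rik, which had 0 to 25 reads per library. Tspan31 had 896 and 508 reads in PBS 1 and PBS 2, and 622 and 566 in TSLP 1 and TSLP 2, against 726, 549, 630 and 603 for Cdk4. Bysl had 696, 444, 524 and 288 reads in the same order, against 737, 507, 743 and 562 for Ccnd3. The kit keeps the strand, but the strand setting of the counting is not given in the sources used here. The values of the 6 members with such an overlap are therefore uncertain, by an amount that the shares alone do not give.

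Depth was similar in all libraries, with 11328132 and 10724392 reads on genes in PBS 1 and PBS 2, and 11761234 and 10271571 in TSLP 1 and TSLP 2. The values below are normalized counts, the reads of a gene divided by a size factor for its library, which lay between 0.957 and 1.06. The library PBS 1 stood apart from the others. Over 2635 genes with a mean normalized count of at least 1000, its log2 deviation from the mean of all libraries was lower the longer the exons of a gene, with a Spearman rho of −0.659 (a correlation over genes, and genes are not independent). The same measure was 0.571 in PBS 2, 0.400 in TSLP 1 and 0.307 in TSLP 2. Because the mean includes every library, a trend in PBS 1 by itself draws the other libraries the opposite way. PBS 1 also had the lowest value of Foxp3, the transcription factor that defines Treg cells, at 2437 against 5068 in PBS 2, 4507 in TSLP 1 and 5041 in TSLP 2. The Treg markers Il2ra, Ikzf2, Cd4 and Cd3e were lowest in PBS 1 as well, but Ctla4 and Tnfrsf18 were highest there. Ctla4 had 14097 in PBS 1 against 12251 to 13450 in the other libraries, and Tnfrsf18 had 5840 against 3738 to 4581. Values without PBS 1 are therefore given beside many of the results that turn on it.

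No gene of the set passed the test between TSLP and PBS. By limma on log2(normalized count + 1) with Benjamini-Hochberg adjustment over the 11392 genes tested, 0 genes had an adjusted p under 0.05 (0%), and 192 (1.69%) had an unadjusted p under 0.05, of which 88 (0.772% of the genes tested) were higher with TSLP and 104 (0.913%) lower. Ccnd2 was the 1 gene of the set among the 88, and 0 were among the 104. edgeR and DESeq2, run on the recovered reads, also called 0, and each gave 234 genes at an unadjusted p under 0.05. Of the 10 genes, 9 were tested and Ccnd1 failed the filter on low values. Ccnd2 was the only one of the 9 whose TSLP libraries both lay above both PBS libraries, which was found for 14.5% of all genes tested. None of the 9 lay below (0), against 14.4% of all genes, and 8 overlapped between the groups. The median log2 fold change of the 9 genes was −0.0043 beside 0.01 over all genes tested, and 6 of them lay within 0.2 of no change. In RNA from a whole population, fewer cells that express a gene and less RNA per cell cannot be told apart.

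**Figure D1:**
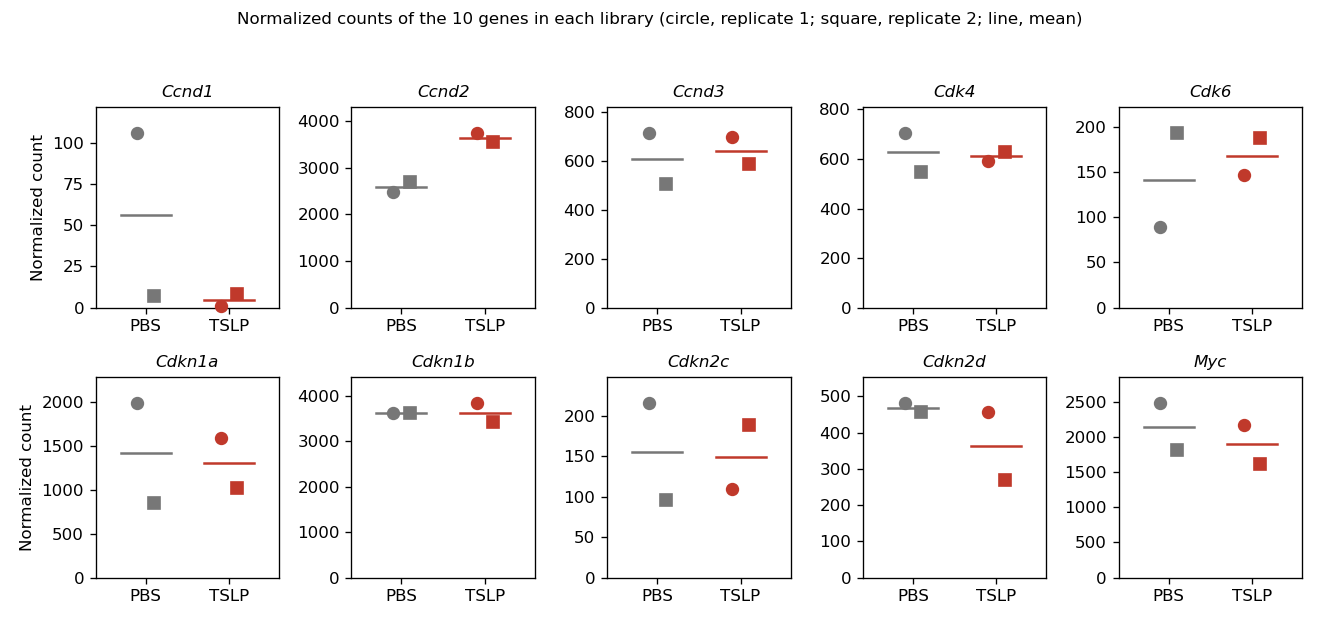
Normalized counts of the 10 genes, each on its own linear axis from 0, with PBS in grey and TSLP in red, a circle for replicate 1, a square for replicate 2 and a line at the mean of each group. Only for Ccnd2 do both TSLP libraries (3740.1 and 3561) lie above both PBS libraries (2475 and 2693), and for Ccnd1 PBS 1 (105.6) lies far above the others.

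Ccnd2, which encodes cyclin D2, had the highest normalized count of the D cyclins in every library. The gene lies on chromosome 6 from 127125162 to 127152193 on the minus strand and has 9409 bases of exon. Its normalized count was 2475 and 2693 in PBS 1 and PBS 2, and 3740.1 and 3561 in TSLP 1 and TSLP 2. The groups did not overlap, and the gap between them was larger than the difference within either group. The mean was 2584 ± 154 with PBS and 3650.3 ± 127 with TSLP (SD, n = 2), a ratio of 1.41. TSLP gave a log2 fold change of 0.50 over PBS (SE 0.21, 95% interval 0.02 to 0.97), with an unadjusted limma p of 0.0411 and an adjusted p of 0.9999 after Benjamini-Hochberg adjustment. A smaller p was found for 129 of the genes tested. Because the groups did not overlap, leaving out a library could not turn the sign. Ccnd2 was higher with TSLP in all 16 fits that were run, with a log2 fold change of 0.37 to 0.50 over 12 settings and 0.44 to 0.56 when each library was left out in turn. Its unadjusted p lay between 0.0280 (DESeq2) and 0.108 over the 12 settings and was under 0.05 in 8 of them, and it ranged from 0.0137 to 0.218 when each library was left out. With the trend over exon length removed, the log2 fold change was 0.37 with an unadjusted limma p of 0.0597.

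Ccnd3, which encodes cyclin D3 and is needed for the expansion of early thymocytes, overlapped between the groups. It lies on chromosome 17 from 47505051 to 47599691 on the plus strand. Its normalized count was 714 in PBS 1 and 507 in PBS 2, against 700.0 in TSLP 1 and 587 in TSLP 2. Both TSLP libraries thus lay between the PBS libraries. The log2 fold change was 0.09 (SE 0.28, 95% interval −0.54 to 0.72, unadjusted limma p of 0.752), and its sign turned in some fits that removed the length trend or left out a library.

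Ccnd1, which encodes cyclin D1, the D cyclin of many epithelial and mesenchymal cells, had at most 8 reads in every library except PBS 1. It lies on chromosome 7 from 144929931 to 144939925 on the minus strand. It had 109 and 7 reads in PBS 1 and PBS 2, and 1 and 8 in TSLP 1 and TSLP 2, where a count of 0 would allow up to 3 reads. PCR duplicates cannot be told from separate molecules here, so that this limit takes in counting error alone. The difference between the group means therefore rests on PBS 1, and the 7 reads of PBS 2 lay between those of the TSLP libraries. Without the filter on low values, the log2 fold change in the fit with all libraries, PBS 1 included, was −2.78 with an unadjusted limma p of 0.116.

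Set side by side per kb of exon, the D cyclins came to 367 and 346 normalized counts per kb in PBS 1 and PBS 2, and to 477 and 447 in TSLP 1 and TSLP 2. Exon length here took in all annotated exons of a gene, so that shares between genes depend on the annotated isoforms and do not count molecules. Ccnd2 RNA accounted for 71.7% of the D cyclin sum in PBS 1 and 82.8% in PBS 2, against 83.3% in TSLP 1 and 84.6% in TSLP 2. Ccnd3 made up 22.2%, 16.7%, 16.7% and 15.0% in the same order. Ccnd1 made up 6.11% in PBS 1 and at most 0.430% in the other libraries. The summed D cyclin level was thus higher in both TSLP libraries, by a difference carried by Ccnd2. An exact test of 2 libraries against 2 cannot give a two-sided p under 0.333, and none was computed.

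**Figure D2:**
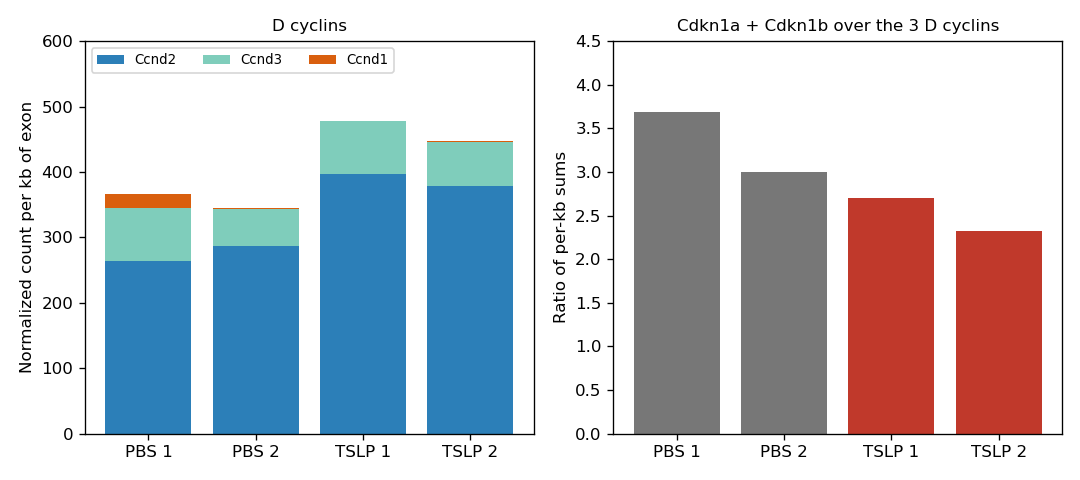
Summed level of the D cyclins per library in normalized counts per kb of exon, stacked by gene (left), and the ratio of the summed CIP/KIP inhibitors Cdkn1a and Cdkn1b to the summed D cyclins on the same scale (right). The D cyclin sum is 477 and 447 in the TSLP libraries and 367 and 346 in the PBS libraries, and the ratio is 2.70 and 2.32 against 3.69 and 3.00.

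The catalytic partners of the D cyclins did not differ beyond the spread between libraries. Cdk4 (chromosome 10 from 127063534 to 127067920, plus strand) had a normalized count of 704 and 549 in PBS 1 and PBS 2, and 594 and 630.2 in TSLP 1 and TSLP 2. Both TSLP libraries lay between the PBS libraries, and the log2 fold change was −0.02 (SE 0.26, 95% interval −0.62 to 0.57). It lay above 0 in the fits without PBS 1 (0.15), without TSLP 1 (0.02) and with the length trend removed (0.04). Cdk6 (chromosome 5 from 3341485 to 3531008, plus strand), with 13989 bases of exon the longest of the 10 genes, had 89.2 in PBS 1 and 193 in PBS 2, against 147 in TSLP 1 and 188 in TSLP 2. PBS 1 was the low library here. For Cdk6, the log2 fold change was 0.34 (SE 0.50, 95% interval −0.79 to 1.47) with all libraries. It was −0.21 without PBS 1 and 0.13 with the length trend removed. Per kb of exon, the level of Cdk4 exceeded that of Cdk6 in every library, with a ratio of 12.2 in PBS 2 to 34.0 in PBS 1.

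Of the CIP/KIP inhibitors, Cdkn1b (p27) was the gene with the highest level per kb of exon in both groups and had means of 3626 ± 3.41 with PBS and 3626 ± 294 with TSLP (SD, n = 2). It lies on chromosome 6 from 134920401 to 134925513 on the plus strand. Its normalized count was 3624 and 3629 in PBS 1 and PBS 2, and 3834 and 3418 in TSLP 1 and TSLP 2. The TSLP libraries thus lay on either side of the PBS libraries. The log2 fold change was −0.0024 (SE 0.21), with a 95% interval of −0.48 to 0.48 that leaves room for a modest difference either way. It turned to 0.018 with the length trend removed and to 0.080 without TSLP 2.

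Cdkn1a (p21), a target of the tumour suppressor p53 and of other pathways, varied more within the groups than between them. It lies on chromosome 17 from 29090976 to 29100727 on the plus strand. Its normalized count was 1983 in PBS 1 and 846 in PBS 2, against 1585 in TSLP 1 and 1016 in TSLP 2. The ratio of the higher to the lower library was 2.34 with PBS and 1.56 with TSLP, and both TSLP libraries lay within the range of the PBS libraries. The log2 fold change was −0.03 (SE 0.39, 95% interval −0.91 to 0.85), and it moved between −0.64 without PBS 2 and 0.58 without PBS 1.

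The ratio of the CIP/KIP inhibitors to the D cyclins was lower in both TSLP libraries than in either PBS library. For Cdkn1a and Cdkn1b over the D cyclins, both summed per kb of exon, it was 3.69 and 3.00 in PBS 1 and PBS 2, and 2.70 and 2.32 in TSLP 1 and TSLP 2. The mean ratio was 3.34 ± 0.491 with PBS and 2.51 ± 0.268 with TSLP (SD, n = 2). The value rests in part on PBS 1, since without it 3.00 in PBS 2 stood against the TSLP mean of 2.51, a gap no larger than the SD of the PBS libraries. The summed inhibitors themselves overlapped, at 1354 and 1035 normalized counts per kb with PBS and 1288 and 1037 with TSLP. No test was run on this ratio of chosen genes, whose size also depends on the exon lengths used.

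The INK4 inhibitors overlapped between the groups as well. Cdkn2c (p18; chromosome 4 from 109660876 to 109667189, minus strand) had a normalized count of 215 and 96.0 in PBS 1 and PBS 2, and 109 and 188 in TSLP 1 and TSLP 2. Both TSLP libraries lay between the PBS libraries, and the log2 fold change was −0.0043 (SE 0.54, 95% interval −1.21 to 1.21). Without PBS 1 it was 0.57. Cdkn2d (p19; chromosome 9 from 21288410 to 21291407, minus strand) had 481 in PBS 1 and 457 in PBS 2, against 458 in TSLP 1 and 270 in TSLP 2. Only TSLP 2 was low, and TSLP 1 lay between the PBS libraries. The log2 fold change of Cdkn2d was −0.42 (SE 0.33, 95% interval −1.17 to 0.34, unadjusted limma p of 0.244), the farthest below 0 among the 9 genes of the set that were tested. For Cdkn2d it was −0.03 without TSLP 2 and −0.26 with the length trend removed.

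Myc, at chromosome 15 from 61985391 to 61990374 on the plus strand, overlapped between the groups. Its normalized count was 2480.3 and 1812 in PBS 1 and PBS 2, and 2175 and 1621 in TSLP 1 and TSLP 2. The lowest library was one of TSLP and the highest one of PBS, and replicate 1 exceeded replicate 2 by 0.45 on the log2 scale with PBS and by 0.42 with TSLP. For Myc, the log2 fold change was −0.17 (SE 0.25, 95% interval −0.75 to 0.40, unadjusted limma p of 0.508). It was 0.05 without PBS 1, 0.04 without TSLP 2 and −0.07 with the length trend removed. Myc and Ccnd2, both known to respond to cytokines, thus had estimates on opposite sides of 0 in the fit with all libraries, and the difference between them was not tested.

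**Figure D3:**
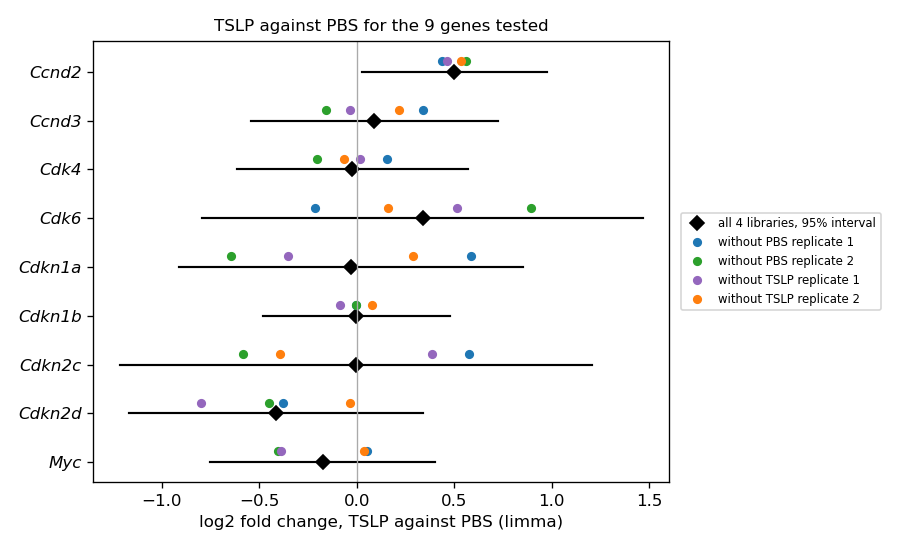
Log2 fold change of TSLP against PBS for the 9 genes tested, with 95% intervals from limma, and small points for the fits without 1 library each. Only the interval of Ccnd2 (0.02 to 0.97) lies above 0, and the points of Cdkn1a spread from −0.64 to 0.58.

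Ordered by level per kb of exon, Cdkn1b and Myc stood at the top in both groups, and Cdk6 and Ccnd1 at the bottom. With PBS, the mean was 797 ± 0.749 normalized counts per kb for Cdkn1b, 789.9 ± 174 for Myc, 398 ± 226 for Cdkn1a, 298 ± 10.6 for Cdkn2d, 275 ± 16.4 for Ccnd2, 193 ± 33.6 for Cdk4, 69.6 ± 16.7 for Ccnd3, 57.9 ± 31.4 for Cdkn2c, 11.96 ± 14.8 for Ccnd1 and 10.1 ± 5.25 for Cdk6. Neighbours in this order whose PBS libraries overlapped in level were Cdkn1b and Myc, Cdkn1a and Cdkn2d, Ccnd3 and Cdkn2c, and Ccnd1 and Cdk6. The ranges of mean ± SD also met for Myc and Cdkn1a, for Cdkn2d and Ccnd2, and for Cdkn2c and Ccnd1, so that their order is not firm either. With TSLP, the mean of Ccnd2 was 388 ± 13.5, against 366 ± 113 for Cdkn1a and 231 ± 84.6 for Cdkn2d, although its values lay within the range of Cdkn1a. The place of Cdkn1a with PBS rested on PBS 1 (558 per kb), since in PBS 2 Ccnd2 (286) already stood above Cdkn1a (238) and close to Cdkn2d (290.5). Cdk6 (11.98 ± 2.08) stood above Ccnd1 (0.988 ± 1.11) with TSLP, as it did in PBS 2 (13.8 and 1.49), whereas PBS 1 had 6.37 for Cdk6 and 22.4 for Ccnd1. The other genes had the same order of means in both groups. All of this order also depends on the exon lengths, which take in every annotated exon of a gene.

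The promoters of these genes were searched for the letters that Myc and other factors read. In RefSeq (GRCm38.p6), 7 of the 10 genes had a promoter entry, and Ccnd1, Ccnd2 and Myc had none and were not searched. That of Cdk4, a gene reported to respond to Myc, is shown because it held the most matches to CACGTG, the E-box bound by Myc with Max. The 250 bases before the start of Cdk4, at chr10:127063285-127063534 on the plus strand, have the 4 E-boxes in capitals.
Cdk4: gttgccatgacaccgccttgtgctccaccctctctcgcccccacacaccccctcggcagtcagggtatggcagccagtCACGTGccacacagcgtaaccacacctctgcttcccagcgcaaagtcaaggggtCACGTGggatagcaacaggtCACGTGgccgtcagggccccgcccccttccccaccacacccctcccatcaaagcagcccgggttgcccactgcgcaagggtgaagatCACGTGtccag
Of 32851 promoter entries of the same length, 6.02% held CACGTG on either strand, and 7 entries (0.0213%) held 4 or more. Cdk6 held 1. TTCNNNGAA, the letters read by STAT factors, was in 7.02% of all entries and in 0 of the 10 entries of the 7 genes searched, and TTTNGCGC, a form of the E2F site, was in 1.13% and in 0 of the 10. GGGCGG, the GC box, was in 32.7% of all entries and in 7 of the 10 entries of these genes. These matches describe letters in the window and do not show that a factor binds there. The Cdk4 and Myc values given above both overlapped between the groups.

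The genes around this module were followed in 8 lists of pathway genes, which are not all free of genes of the set. Of any list, 0 genes had an adjusted p under 0.05 by limma with Benjamini-Hochberg adjustment. Ccnd2, which stands in the lists of Myc targets and STAT5 targets, was the only entry with an unadjusted p under 0.05. The median log2 fold change of the lists lay between −0.06 and 0.21, beside 0.01 over all genes tested. Leaving out 1 library at a time turned the sign of the median in 7 of the 8 lists, all but the Myc network. The counts of genes without overlap below stand beside 14.5% (higher) and 14.4% (lower) of all genes tested.

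Downstream of the D cyclins, 13 of 13 pocket protein and E2F genes were tested, 7 of them higher and 6 lower, and the median log2 fold change was 0.05. TSLP and PBS did not overlap for 1 gene that was higher and 2 that were lower. E2f1, an activating E2F, had a normalized count of 104 in PBS 1 and 134 in PBS 2, against 63.1 in TSLP 1 and 34.5 in TSLP 2. Both TSLP libraries were lower, and the log2 fold change was −1.32 (SE 0.61, unadjusted limma p of 0.0586). The retinoblastoma gene Rb1 had a log2 fold change of 0.45 and the repressive E2f4 one of −0.02. Without PBS 1 that of Rb1 was 0.057. Rb1 was lowest in PBS 1 with 797 reads, against 1335 in PBS 2, 1469 in TSLP 1 and 1335 in TSLP 2.

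Among cyclin E and S phase genes, 17 of 17 were tested, 6 of them higher and 11 lower, and the median was −0.03. No overlap between the groups was found for 2 that were higher and 1 that was lower. Ccne1, which encodes the cyclin E1 that activates CDK2, had 66 and 98 reads in PBS 1 and PBS 2, and 116 and 143 in TSLP 1 and TSLP 2, and a log2 fold change of 0.68 (SE 0.53, unadjusted limma p of 0.227). Tk1, a thymidine kinase made in S phase, had 0, 45, 92 and 46 reads in the same order. PBS 1 alone was at 0, and the PBS 2 and TSLP 2 libraries were alike. The log2 fold change of Ccne1 without PBS 1 was 0.38. The abundant Pcna, the sliding clamp of DNA replication, and Mcm6, a subunit of the replicative helicase, had log2 fold changes of −0.02 and −0.03, and without PBS 1 of 0.17 and 0.12.

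Among the other CDK inhibitors and G1 kinases, 8 of 9 were tested, with 5 higher and 3 lower and a median of 0.10. For 4 that were higher and 1 that was lower, the groups did not overlap. The INK4 gene Cdkn2b (p15) was scarce, with 14 reads in PBS 1 and 33 in PBS 2, against 9 in TSLP 1 and 0 in TSLP 2, and a log2 fold change of −2.85 (SE 1.83, unadjusted limma p of 0.154). Without TSLP 2 it was −1.23, and without TSLP 1 it was −4.48. Ccnh, the cyclin of the CDK-activating kinase, had 139, 112, 165 and 218 reads and a log2 fold change of 0.61 (SE 0.44), or 0.34 without TSLP 2. Its partner Cdk7 had a log2 fold change of −0.02 (0.17 without PBS 1) and the phosphatase gene Cdc25b one of 0.22.

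Regulators of D cyclin and p27 stability were tested for 12 of 13 genes in the table, with 5 higher, 7 lower and a median of −0.05. Both TSLP libraries lay beyond both PBS libraries for 2 that were higher and 1 that was lower. Skp2, the F-box protein that marks p27 for destruction, had 31 and 34 reads in PBS 1 and PBS 2, and 95 and 63 in TSLP 1 and TSLP 2. Both TSLP libraries were higher, and the log2 fold change was 1.24 (SE 0.69, unadjusted limma p of 0.107). The other parts of its ligase, Skp1a and Cul1, had log2 fold changes of 0.03 and −0.05, and without PBS 1 of 0.34 and 0.070.

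The partners and antagonists of Myc had the highest median of the lists, 0.21, with 12 of 14 tested, 9 higher and 3 lower. The groups did not overlap for 2 that were higher and 0 that were lower. This median was 0.03 without PBS 1 and 0.06 with the length trend removed, and the median exon length of the list was 6934.5 bases. Max, the obligate partner of Myc, had a log2 fold change of −0.03 (0.088 without TSLP 2), and Mycbp2, a large ubiquitin ligase, had 4626 reads in PBS 1 against 8456 in PBS 2, 7845 in TSLP 1 and 7585 in TSLP 2. The Myc target genes were tested for 18 of 18 genes, with 7 higher and 11 lower, and a median of −0.06. Without overlap, 2 of them were higher, among them Ccnd2 of the set itself, and 3 lower. Npm1, a nucleolar protein of ribosome assembly, had a log2 fold change of −0.10 and Odc1, the first enzyme of polyamine synthesis, one of 0.09, and without PBS 1 these were 0.19 and 0.26.

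The p53 targets beside Cdkn1a were tested for 13 of 14 genes, with 6 higher, 7 lower and a median of −0.02. Among them, 3 were higher and 2 lower without overlap between the groups. Gadd45a, a gene induced by DNA damage and stress, had 873 reads in PBS 1 and 462 in PBS 2, against 464 in TSLP 1 and 345 in TSLP 2, and a log2 fold change of −0.65 (SE 0.34, unadjusted limma p of 0.0856). On the other side of 0, Zmat3, an RNA-binding protein, had 337, 498, 604 and 617 reads and a log2 fold change of 0.59, and Aen, a nuclease of apoptosis, 108, 161, 201 and 270 reads and one of 0.83. PBS 1 was the highest of the 4 libraries for Gadd45a and the lowest for Zmat3 and Aen, and without it their log2 fold changes were −0.22, 0.28 and 0.52. That of Aen was 0.54 without TSLP 2. The abundant Bax, which permeabilises mitochondria, had a log2 fold change of −0.20 and Trp53inp1 one of 0.30, but without PBS 1 these were 0.0027 and 0.048.

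STAT5 is a transcription factor that TSLP is known to activate, and 12 of 12 of its listed targets were tested, with 4 higher, 8 lower and a median of −0.06. This median was 0.19 without PBS 1, −0.32 without PBS 2, −0.31 without TSLP 1 and 0.18 without TSLP 2. There was no overlap for 4 that were higher, among them Ccnd2, and 0 that were lower. Osm, which encodes the cytokine oncostatin M, had 71 and 58 reads in PBS 1 and PBS 2, and 110 and 124 in TSLP 1 and TSLP 2, and a log2 fold change of 0.86 (SE 0.54, unadjusted limma p of 0.145). Il2ra, the high-affinity subunit of the interleukin-2 receptor, had a log2 fold change of 0.26, or 0.082 without PBS 1. Pim1, a survival kinase, had 11478, 9208, 13106 and 7567 reads and a log2 fold change of −0.03 (−0.36 without TSLP 1 and 0.29 without TSLP 2), with the TSLP libraries on either side of the PBS libraries.

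**Figure D4:**
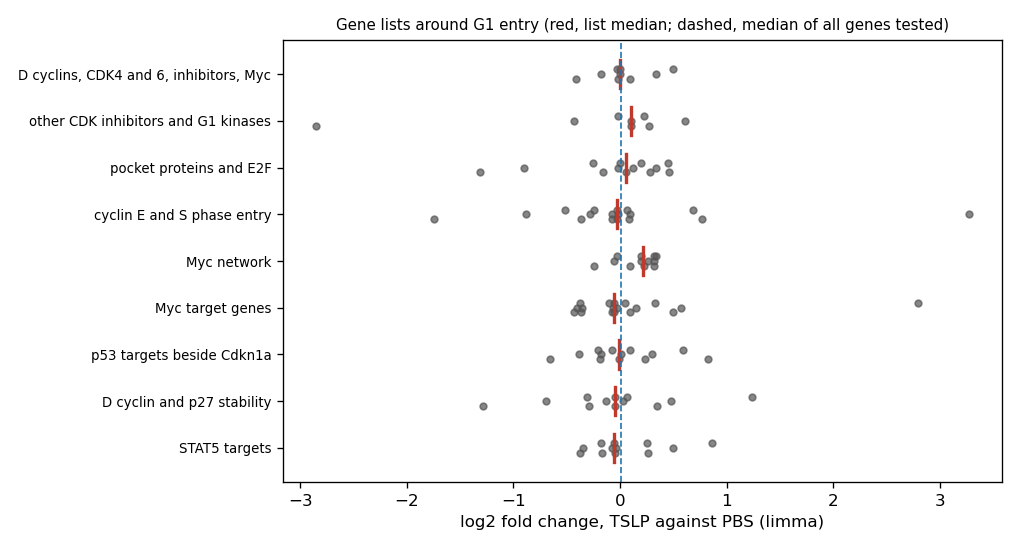
Log2 fold change of TSLP against PBS for the tested genes of the set and of 8 pathway lists (1 point per gene), with a bar at the median of each list and a line for the median of all genes tested (0.01). The medians of the lists lie between −0.06 and 0.21, and the points of each list fall on both sides of 0.

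Markers of dividing cells gave no uniform picture. Of 5 tested, 2 were higher and 3 lower (median log2 fold change −0.35), and their summed level was 164 cpm (reads scaled to a library's total on genes) in PBS 1 and 132 in PBS 2, against 160 in TSLP 1 and 103 in TSLP 2. The median was −0.16 without PBS 1, −1.09 without PBS 2, −1.07 without TSLP 1 and 0.013 without TSLP 2. The most abundant, Mki67, had 831, 683, 1013 and 622 reads in that order. Cdk1, the kinase that drives mitosis, was singled out after its values were seen. It had 83 reads in PBS 1 and 76 in PBS 2, against 14 in TSLP 1 and 13 in TSLP 2, so that both TSLP libraries were low, and its log2 fold change was −2.46 (SE 0.83) with an unadjusted limma p of 0.0156 and an adjusted p of 0.9999. Top2a, made at the same stage of the cycle, had 856, 637, 779 and 424 reads and overlapped between the groups.

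The markers of the labelled cell type were present in every library. The 7 Treg markers summed to 3692 and 4223 cpm in PBS 1 and PBS 2, and 4157 and 4463 in TSLP 1 and TSLP 2, and Ctla4 was the most abundant. The 5 B cell markers summed to 2.82, 10.5, 5.02 and 10.3 cpm, with Cd79b the most abundant over all libraries but Cd22 in PBS 1 and Cd79a in TSLP 1, and both CD8 T cell markers to between 7.83 and 13.4 cpm, mostly from Cd8b1. The 6 myeloid markers summed to 61.5 cpm in PBS 1 and 40.1 in PBS 2, against 41.2 in TSLP 1 and 42.4 in TSLP 2, mostly from Cst3, with the macrophage marker Adgre1 at 0 in every library. Of the 4 myeloid markers tested, 1 was higher and 3 lower, with a median of −0.92 that was −0.63 without PBS 1 and −0.50 without TSLP 2. Cd68 had 174 reads in PBS 1 and 66 in PBS 2, against 59 in TSLP 1 and 16 in TSLP 2, and a log2 fold change of −1.75 (unadjusted limma p of 0.0601). Itgam had 23, 19, 4 and 7 reads in that order, and a log2 fold change of −1.78 (unadjusted limma p of 0.236). Both were thus lower in the TSLP libraries without overlap, but the log2 fold change of Cd68 was −1.08 without PBS 1 and −0.91 without TSLP 2. Lyz2, a lysozyme of myeloid cells, had 1, 43, 37 and 40 reads and a log2 fold change of 2.07 (unadjusted limma p of 0.205), which was −0.17 without PBS 1. Cst3 overlapped. NK cell markers summed to at most 2.82 cpm with Ncr1 at 0, and erythroid markers to at most 0.681 cpm with the 4 haemoglobin genes at 0. The part of these cells in the values of the set was not tested.

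The genes whose pattern was most like that of Ccnd2 were sought by the distance between log2 values centred on the mean of the 4 libraries, among 4487 genes with a mean normalized count of at least 500. The nearest was Cebpg, a transcription factor of the C/EBP family, at a distance of 0.0338. Its normalized count was 749 and 842 in PBS 1 and PBS 2, and 1154 and 1100.4 in TSLP 1 and TSLP 2. Mmd followed at 0.0485 with 457, 491, 683 and 677, and then Vps35, a subunit of the retromer, at 0.0687, Pfkfb3, an enzyme that sets the rate of glycolysis, at 0.0934 and Galnt7, a glycosyltransferase of the Golgi, at 0.0971. In Cebpg and Mmd, as in Ccnd2, PBS 1 was the lowest library and TSLP 1 the highest. This likeness rests on 4 libraries and is a description.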

How the data were processed

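RNA was sequenced from sorted mouse Treg cells held with TSLP or PBS, 2 libraries each. Per the methods and labels, the authors mapped 50-base single-end reads to mm10 with HISAT2, counted them with HTSeq and normalized them with DESeq2. The annotation is not given in the sources used here. The deposited values are a signal, the read count divided by a size factor per library, and reads were recovered from their steps (100% of the values whole within 0.01). In the deposited table, 27 gene names had turned into dates. Depth was 10271571 to 11761234 reads on genes.

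limma 3.58.1 (R 4.3.3) with an intensity trend was run on log2(normalized count + 1) over genes that reached a normalized count of 10 in 2 or more libraries, with Benjamini-Hochberg adjustment over all of them. Each fold change is TSLP over PBS on that scale, on which the added 1 draws differences in scarce genes towards 0. With 1 library at or near 0, a fold can still exceed the ratio of the group means (Tk1, 9.67 against 2.99). The fit was also tried on simulated data, but the outcome is not reported here and no value above rests on it. Alternatives were edgeR 4.0.16 and DESeq2 1.42.0 on the recovered reads, other pseudocounts (0.5 and 10) and filters, no intensity trend, a replicate block, removal of the length trend (lowess over exon length, span 0.3) and leaving out each library; list medians under the last pair of these were added after seeing the data. Exon lengths were the union of all annotated exons of a gene in GENCODE M21 (95.5% of names).

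The members and the lists were chosen with earlier results of these data known. Named from the lists were genes with an unadjusted p under 0.05, genes without overlap and an absolute log2 fold change of at least 0.5, and the 2 with the highest level per kb.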

Additional observations from a re-analysis of the deposited data

How the results depend on the processing

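With 2 libraries a group, 2 residual degrees of freedom remain, and among the 9 genes of the set that were tested the intervals of all but Ccnd2 include 0. At an adjusted p under 0.05, 0 genes were called by limma in every setting, by edgeR and by DESeq2. At an unadjusted p under 0.05, limma gave 192 genes, 358 without a filter, 427 without an intensity trend, 258 with a replicate block, and 388 with the length trend removed and the block. A fit without a library has 1 left in that group, which is assumed to vary like the other group, and gave 79 (without TSLP 2) to 1858 (without PBS 2). The causes were not tested. The replicate numbers were not taken to pair the libraries (correlation of their deviations 0.00072 over all genes tested and 0.0931 over the 2716 whose mean reached 1000), and with the block Ccnd2 had an unadjusted p of 0.0631. Of the 192 genes 88 were higher, against 145 of 258 with the block and 220 of 388 with the block and the length trend removed, and the split was more one-sided without 1 library (193 higher and 70 lower without PBS 1, 1291 and 567 without PBS 2, 9 and 159 without TSLP 1, 3 and 76 without TSLP 2).

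Ccnd2 and Cdkn2d kept their sign in all 16 fits, although for Ccnd2, without overlap, leaving out a library could not turn it. Without the length trend, with or without the block, Ccnd3 was at −0.019, Cdk4 at 0.044, Cdkn1a at 0.017, Cdkn1b at 0.018 and Cdkn2c at 0.10. In the same fits, without a turn of sign, Ccnd2 was at 0.37, Cdk6 at 0.13, Cdkn2d at −0.26 and Myc at −0.069. Without 1 library at a time, Ccnd2 ranged from 0.44 to 0.56, Ccnd3 from −0.16 to 0.34, Cdk4 from −0.20 to 0.15, Cdk6 from −0.21 to 0.89, Cdkn1a from −0.64 to 0.58, Cdkn1b from −0.085 to 0.080, Cdkn2c from −0.58 to 0.57, Cdkn2d from −0.80 to −0.03 and Myc from −0.40 to 0.051. The median of the 9 genes ranged from −0.20 to 0.15. The cause of these reversals and shifts was not tested.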
